A study of Mus musculus with 24 samples.

Results

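The genes studied here are 10 crypt stem cell and Wnt genes of the mouse small intestine, namely Lgr5, Ascl2, Olfm4, Smoc2, Axin2, Rnf43, Znrf3, Cd44, Tnfrsf19 and Sox9. They were taken by name and matched to their Ensembl identifiers, and they are 10 of the 54146 genes counted. The rule names the genes and uses no threshold on a value, but the choice was made with earlier results of these data known.

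The epithelium of the small intestine is renewed by stem cells at the base of the crypts, where Wnt ligands keep β-catenin stable and let it activate genes together with TCF/LEF factors. Several of its target genes feed back on the pathway. Axin2 is part of the complex that destroys β-catenin, and the ubiquitin ligases Rnf43 and Znrf3 remove Wnt receptors from the cell surface unless R-spondin bound to Lgr5 or a related receptor keeps them away. CDK8 and CDK19 are paralogous kinases that bind the Mediator complex of transcription, and CDK8 has been studied as a coactivator of β-catenin.

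Mouse small intestinal organoids were profiled by RNA-seq in 2 separate experiments, each of 4 groups with 3 libraries per group (12 libraries in all per experiment). In the first, WT, Cdk8-/-, Cdk19-/- and double knockout organoids were collected after 7 days in 600 nM 4-hydroxytamoxifen. The organoids came, according to the study's methods, from Cdk8 lox/lox mice with or without Villin-Cre-ERT2, a recombinase restricted to gut epithelium that removes a coding exon of Cdk8 once tamoxifen is given, and Cdk19 was disrupted with lentiviral Cas9 and a guide RNA followed by puromycin selection and clonal expansion. In the second, organoids were given DMSO or Senexin B, an inhibitor of CDK8 and CDK19, for 16 h or 24 h. The dose of 10 µM and the WT genotype of these organoids were taken from the paper, since the labels of these libraries carry no genotype. Their extraction text repeats the 7 days of 4-hydroxytamoxifen, and whether they received it is not clear. The Cre transgene and the Cdk8 deletion cannot be told apart, and neither can Cdk19 loss and the choice of a clone.

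Counts on genes ran from 14636861 to 15473180 in the genotype libraries, and from 27075937 to 28405118 in the inhibitor libraries. The genotype libraries had more reads, 41879958 to 42068649 beside 36042777 to 36255610. Only the second-strand column was counted, which held 49.6 to 49.7% of stranded counts in the genotype libraries. Of the genes named by the labels, Cdk19 ranged from 711.1 to 748.7 normalised counts in WT, while replicates 1, 2 and 3 of the group labelled Cdk19-/- had 729.4, 420.1 and 422.5. The 3 libraries labelled double knockout had 402.9, 355.5 and 773.0. The libraries labelled Cdk19-/- replicate 1 and double knockout replicate 3 were thus at the WT level, and the numbers of genes called in these groups are given with and without both. Cdk8 counts sum all exons and do not show the loss of that exon. Cdk19 counts sum all exons as well, and the paper describes a short deletion in exon 1 of Cdk19. A WT level of Cdk19 counts therefore does not by itself show an intact gene. The paper reports the deletion by sequencing, absence of the protein by Western blot and loss of the mRNA by qPCR, without naming these libraries. Reads on Esr1, whose ligand-binding domain is part of Cre-ERT2, were at 286 to 393 normalised counts in the 6 libraries labelled Cdk8-/- or double knockout, and at 1.01 to 6.26 in the 6 others. The genotype libraries are also labelled with a mammary carcinoma line, 4T1. All 10 epithelial markers were detected and summed to 120326 to 179804 normalised counts, and 0 of 6 mammary markers passed the filter on low counts.

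Normalised read counts are counts divided by the effective size of a library and multiplied by the mean effective size of its experiment, so that levels can be compared within an experiment and not between them. Log2 fold changes and p-values come from the quasi-likelihood test of edgeR over all genes that passed the filter, and a gene was called at a Benjamini-Hochberg adjusted p under 0.05. All 10 genes passed the filter in both experiments. The replicates are described as biological triplicates, and their source is not given further, so p-values measure the spread between these libraries. In RNA of whole organoids, fewer cells of a type and less RNA per cell cannot be told apart.

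Promoter windows are shown first because TCF/LEF factors bind DNA at a core of CTTTG followed by A and A or T. The RefSeq table for GRCm38.p6 holds 8 windows of 300 bases, 250 before and 50 after a start site, for 6 of the 10 genes. Printed here are those of Ascl2 (chr7:142969215-142969514, minus strand), Axin2 (chr11:108920099-108920398, plus strand), Cd44 (chr2:102901616-102901915, minus strand) and the second window of Tnfrsf19 (chr14:61037938-61038237, minus strand). The first 2 belong to genes that fell in the double knockout, and the other 2 are the windows that hold the letters searched for. Capitals mark a match, 5′ to 3′ on the strand of the gene.
Ascl2: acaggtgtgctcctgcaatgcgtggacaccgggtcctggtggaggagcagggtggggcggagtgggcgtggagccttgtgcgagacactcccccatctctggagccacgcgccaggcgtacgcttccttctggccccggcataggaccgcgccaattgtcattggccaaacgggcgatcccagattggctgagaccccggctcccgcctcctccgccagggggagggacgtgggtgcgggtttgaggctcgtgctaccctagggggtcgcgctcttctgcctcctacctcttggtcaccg
Axin2: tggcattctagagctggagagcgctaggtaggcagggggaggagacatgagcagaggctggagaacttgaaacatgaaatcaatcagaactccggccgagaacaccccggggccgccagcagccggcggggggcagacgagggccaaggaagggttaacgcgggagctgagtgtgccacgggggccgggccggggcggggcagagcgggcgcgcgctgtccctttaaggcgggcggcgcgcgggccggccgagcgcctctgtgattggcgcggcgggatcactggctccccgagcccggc
Cd44: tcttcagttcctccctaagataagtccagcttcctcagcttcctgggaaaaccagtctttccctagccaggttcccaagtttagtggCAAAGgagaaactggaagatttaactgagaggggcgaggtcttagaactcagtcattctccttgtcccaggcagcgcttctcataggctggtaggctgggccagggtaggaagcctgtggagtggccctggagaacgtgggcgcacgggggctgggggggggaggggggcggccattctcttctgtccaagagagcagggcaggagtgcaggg
Tnfrsf19: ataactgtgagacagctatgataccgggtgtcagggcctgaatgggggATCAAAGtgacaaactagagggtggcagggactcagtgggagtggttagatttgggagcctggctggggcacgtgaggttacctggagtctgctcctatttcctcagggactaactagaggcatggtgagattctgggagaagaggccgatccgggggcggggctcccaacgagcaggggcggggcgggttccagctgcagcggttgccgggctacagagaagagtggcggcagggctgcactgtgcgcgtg
CTTTGAA or CTTTGAT, searched on both strands, was found in 1 of the 8 windows, as CTTTGAT on the strand opposite to the gene, 202 bases before the start of Tnfrsf19. Of all 32851 promoter windows, 8.65% hold either of them. The core CTTTG alone was found in 2 of the 8 windows, those of Cd44 and Tnfrsf19, against 53.9% of all windows. Ascl2 and Axin2 have neither in these windows, whose share of G and C is 67 and 70%. A match is a string of letters and no measured binding site.

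Levels per kilobase of exon, the scale on which genes can be compared, were led by Olfm4 in every group. In WT, Olfm4 had 8167 ± 722 normalised counts per kilobase (SD, n = 3), followed by Sox9 (889 ± 117), Ascl2 (766 ± 89.5), Smoc2 (708 ± 7.56), Axin2 (676 ± 14.1), Lgr5 (573 ± 24.4), Rnf43 (492 ± 20.3), Cd44 (336 ± 11.5), Znrf3 (67.9 ± 3.50) and Tnfrsf19 (26.2 ± 4.59). The libraries of Sox9 and Ascl2 overlapped, as did those of Ascl2 and Smoc2, and all other neighbours in this order were apart. The place of Lgr5 in this order differed between the conditions. It was 6th in WT and in Cdk19-/-, and 8th in Cdk8-/- and in the double knockout, where it had 316 ± 65.8 and 245 ± 37.4 normalised counts per kilobase. Its libraries overlapped those of Ascl2, which was 5th, in Cdk19-/- and those of Rnf43, which was 7th, in Cdk8-/-. In the inhibitor experiment Lgr5 was 4th in DMSO at 24 h (1067 ± 61.5), where its libraries overlapped those of Rnf43. It was 8th in Senexin B at 24 h (544 ± 80.0), where its libraries overlapped those of Sox9. In the double knockout, the libraries of each gene from Smoc2, which was 2nd, to Rnf43, which was 7th, overlapped those of the next, down to Lgr5.

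**Figure D1:**
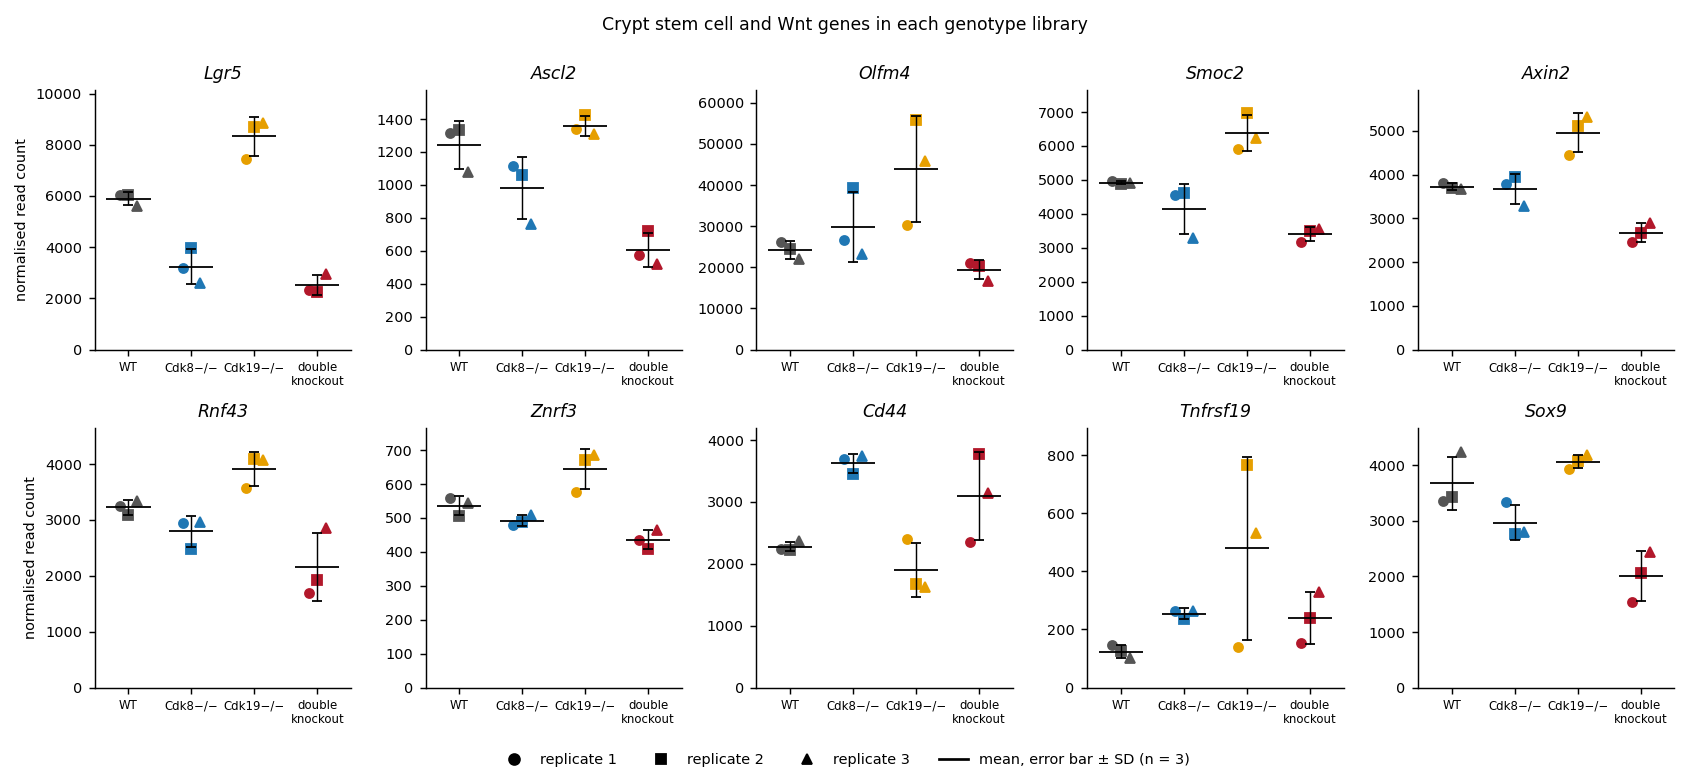
Normalised read counts (vertical axes, each from 0) of the 10 genes in the 12 genotype libraries. Symbols mark replicates and bars the mean ± SD of 3 libraries. The double knockout libraries lie below all WT libraries for Lgr5, Ascl2, Olfm4, Smoc2, Axin2, Rnf43, Znrf3 and Sox9, while Cd44 and Tnfrsf19 do not share this pattern. How many of all genes lie apart in this comparison is not given here.

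In the double knockout, 7 of the 10 genes fell against WT, while Olfm4, Cd44 and Tnfrsf19 were not called. Lgr5, the R-spondin receptor that marks crypt base stem cells, fell 2.34-fold, Ascl2, a transcription factor of the same cells, 2.05-fold, and Sox9, a transcription factor of the crypt base, 1.83-fold. The 3 feedback genes fell as well, 1.39-fold for Axin2, 1.49-fold for Rnf43 and 1.23-fold for Znrf3. Of all 15602 genes tested 17.3% were called, and 7.9% were called lower. The median log2 fold change was -0.50 over the 10 genes and -0.01 over all genes. All 7 genes were also called without the 2 libraries at the WT level of Cdk19.

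Among the stem cell genes, Lgr5 (ENSMUSG00000020140, chr10:115450311-115587780, minus strand) had 6022, 6039 and 5596 normalised counts in WT organoids. It had 2330, 2251 and 2952 in the double knockout. No double knockout library reached the lowest WT library, and the log2 fold change was -1.23 (SE 0.149, 95% interval -1.55 to -0.91, edgeR adjusted p = 5.5e-04). Without the 2 libraries it was -1.36. Ascl2 (ENSMUSG00000009248, chr7:142966829-142969264, minus strand) had 1318, 1335 and 1075 normalised counts in WT organoids, against 576.3, 718.8 and 520.5 in the double knockout. Its groups were apart as well, with a log2 fold change of -1.04 (SE 0.154, edgeR adjusted p = 0.00144).

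Smoc2 (ENSMUSG00000023886, chr17:14279506-14404790, plus strand) encodes a secreted calcium-binding matrix protein used as a stem cell marker. It had 4982, 4884 and 4899 normalised counts in WT, which lie close together, and 3179.5, 3499 and 3544 in the double knockout. The difference of -0.53 on the log2 scale (SE 0.121, edgeR adjusted p = 0.0119) was larger than the spread in either group. Olfm4 (ENSMUSG00000022026, chr14:79984081-80023139, plus strand), a secreted glycoprotein abundant in stem cells, had 26215, 24401 and 21952 normalised counts in WT organoids, against 21002, 20378 and 16712 in the double knockout. The groups did not overlap, but the log2 fold change of -0.32 (95% interval -0.81 to 0.17) was not called (edgeR adjusted p = 0.352).

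Of the feedback genes, Axin2 (ENSMUSG00000000142, chr11:108920349-108950783, plus strand) had 3811, 3695 and 3663 normalised counts in WT organoids. In the double knockout it had 2463, 2669.6 and 2891. The groups were apart, with a log2 fold change of -0.48 (SE 0.0981, edgeR adjusted p = 0.00713). Its exons share 209 bases with the antisense gene Gm11670. Strand is not resolved in the genotype libraries, so reads of either gene there may be counted for the other. Gm11670 had a median of 226 counts in these libraries, and of 34.5 in the inhibitor libraries, where strand is mostly resolved.

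Rnf43 (ENSMUSG00000034177, chr11:87662722-87735539, plus strand) had 3254, 3081 and 3344 normalised counts in WT organoids, against 1692, 1934 and 2849 in the double knockout. The highest double knockout value was in replicate 3, one of the libraries at the WT level of Cdk19. Its log2 fold change was -0.58 (SE 0.159, edgeR adjusted p = 0.0272) with all libraries and -0.83 without both (adjusted p = 0.00103). The call was lost when any library of the comparison other than double knockout replicate 3 was left out, with adjusted p up to 0.0926 (log2 fold change -0.42 without double knockout replicate 1), and also with the 2 groups alone (adjusted p = 0.0599). Znrf3 (ENSMUSG00000041961, chr11:5276324-5444847, minus strand) had 559.2, 505.3 and 542.8 normalised counts in WT organoids, against 434.5, 409.6 and 464.2 in the double knockout. The groups were apart by a small margin, and its log2 fold change of -0.30 (SE 0.0914, edgeR adjusted p = 0.0431) likewise lost its call without any library other than double knockout replicate 3 (adjusted p up to 0.145, without WT replicate 1). It was not called by the Wald test of DESeq2 (adjusted p = 0.0537), with DESeq2 size factors (edgeR adjusted p = 0.0557), with the 2 groups alone (adjusted p = 0.0568) or without a filter (adjusted p = 0.137), and was called in 5 of 14 alternatives in all.

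Sox9 (ENSMUSG00000000567, chr11:112782224-112787760, plus strand) had 3364, 3426 and 4234 normalised counts in WT organoids, against 1541, 2054 and 2434 in the double knockout. WT replicate 3 was the highest and double knockout replicate 1 the lowest. The log2 fold change was -0.87 (SE 0.150, edgeR adjusted p = 0.00288), and it was -1.03 without the 2 libraries. Cd44 (ENSMUSG00000005087, chr2:102811141-102901665, minus strand), a hyaluronan receptor of crypt cells and a Wnt target, had 2236, 2229 and 2368 normalised counts in WT organoids, against 2357, 3775 and 3151 in the double knockout. Double knockout replicate 1 lay within the WT range, and the log2 fold change of 0.44 was not called (edgeR adjusted p = 0.0904). It was called without a filter (0.43, edgeR adjusted p = 0.0289), by DESeq2 (0.46, adjusted p = 0.0493) and without double knockout replicate 1 (0.62, edgeR adjusted p = 0.0208). Tnfrsf19 (ENSMUSG00000060548, chr14:60963875-61046490, minus strand), a receptor of the TNF receptor family also known as Troy, had 145.8, 124.3 and 102.3 normalised counts in WT organoids, against 152.0, 238.3 and 328.2 in the double knockout. It varied widely among the double knockout libraries, and its log2 fold change of 0.95 was not called (95% interval -0.07 to 1.96, edgeR adjusted p = 0.184), except without a filter (0.94, adjusted p = 0.0294).

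In Cdk8-/- organoids, Lgr5 fell 1.81-fold and Cd44 rose 1.59-fold, and the other 8 genes were not called. These are 2 of 10 genes called, beside 5.15% of all genes tested, and 1 called lower, beside 2.36%. The median log2 fold change of the 10 genes was -0.17. Lgr5 had 3171, 3952 and 2608 normalised counts, all below the WT libraries, and a log2 fold change of -0.86 (SE 0.148, 95% interval -1.18 to -0.54, edgeR adjusted p = 0.00801). The call was kept under each of the 13 alternatives tried. Cd44 had 3694, 3453 and 3738 normalised counts, all above WT. Its log2 fold change of 0.67 (SE 0.169, edgeR adjusted p = 0.0425) ranged from 0.63 to 0.71 when each of the 6 libraries was left out in turn, but the call was lost each time (adjusted p 0.0621 to 0.147).

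The stem cell genes other than Lgr5 were closer to WT in Cdk8-/-. Ascl2 had 1116, 1061 and 763.4 normalised counts, which overlapped WT, and a log2 fold change of -0.34 (edgeR adjusted p = 0.215). Smoc2 had 4545, 4604 and 3280.4, all below WT, with a log2 fold change of -0.25 (adjusted p = 0.262). Olfm4 had 26745, 39400.3 and 23182, and replicate 2 stood above the others. Sox9 had 3341, 2773 and 2798, all below the lowest WT library, replicate 1 by a small margin, with a log2 fold change of -0.31 (95% interval -0.63 to 0.02). The feedback gene Axin2 had 3784, 3934 and 3277 normalised counts, on both sides of WT, and its log2 fold change of -0.02 had a 95% interval of -0.24 to 0.19. Rnf43 had 2950.4, 2472 and 2959.6 and Znrf3 478.5, 487.5 and 509.9, with log2 fold changes of -0.21 and -0.12 that were not called (edgeR adjusted p = 0.490 and 0.476). Tnfrsf19 had 264.9, 234.6 and 265.0 normalised counts. These lie close together and above all WT libraries, and its log2 fold change of 1.04 was not called over all genes (95% interval 0.02 to 2.05, edgeR adjusted p = 0.223). It was called without a filter (edgeR adjusted p = 0.0296) and with the 2 groups alone (adjusted p = 0.0121).

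In Cdk19-/- organoids, 0 of the 10 genes were called by edgeR, beside 0.0% of all genes tested. At an unadjusted p under 0.05 there were 6 genes, all of them higher, against 5.08% of all genes (1691 genes in either direction). All 3 Cdk19-/- libraries lay above all WT libraries for 6 genes, against 9.13% of all genes. The median log2 fold change of the 10 genes was 0.33, and -0.02 over all genes. The Wald test of DESeq2 called 4 of the 10 genes and 309 genes in all.

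Lgr5 had 7453, 8675 and 8861 normalised counts in Cdk19-/- (log2 fold change 0.50, edgeR adjusted p = 0.204). Replicate 1, which had the WT level of Cdk19, was the lowest. The same library was the lowest of the group for Olfm4, with 30284, 55819.6 and 45925 normalised counts (0.86, adjusted p = 0.181), and for Axin2, with 4449, 5111 and 5317 (0.41, adjusted p = 0.154). For Tnfrsf19 it was far below the others, at 139.0 beside 765.2 and 533.1 normalised counts. Smoc2 had 5926, 6979 and 6248, Rnf43 3563.5, 4096 and 4070.01, and Znrf3 577.3, 671.9 and 687.1 normalised counts, again with replicate 1 lowest in each. Ascl2 (1339, 1426 and 1309), Sox9 (3944, 4071 and 4188) and Cd44 (2404, 1678 and 1617) overlapped WT.

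Without the libraries labelled Cdk19-/- replicate 1 and double knockout replicate 3, 2 libraries remain in the Cdk19-/- group. In that fit edgeR called 5 of the 10 genes, and 666 genes in all, which is 4.21% of those tested. The 5 genes were Lgr5 (log2 fold change 0.59, edgeR adjusted p = 0.0403), Olfm4 (1.09, adjusted p = 0.0115), Axin2 (0.50, adjusted p = 0.0119), Znrf3 (0.36, adjusted p = 0.0405) and Tnfrsf19 (2.40, adjusted p = 9.7e-04). All 5 were higher than in WT. Without Cdk19-/- replicate 1 alone 3 genes were called (Olfm4, Axin2 and Tnfrsf19), and with any other library of the comparison left out 0. Over all genes, no alternative called more than 666 in this comparison.

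**Figure D2:**
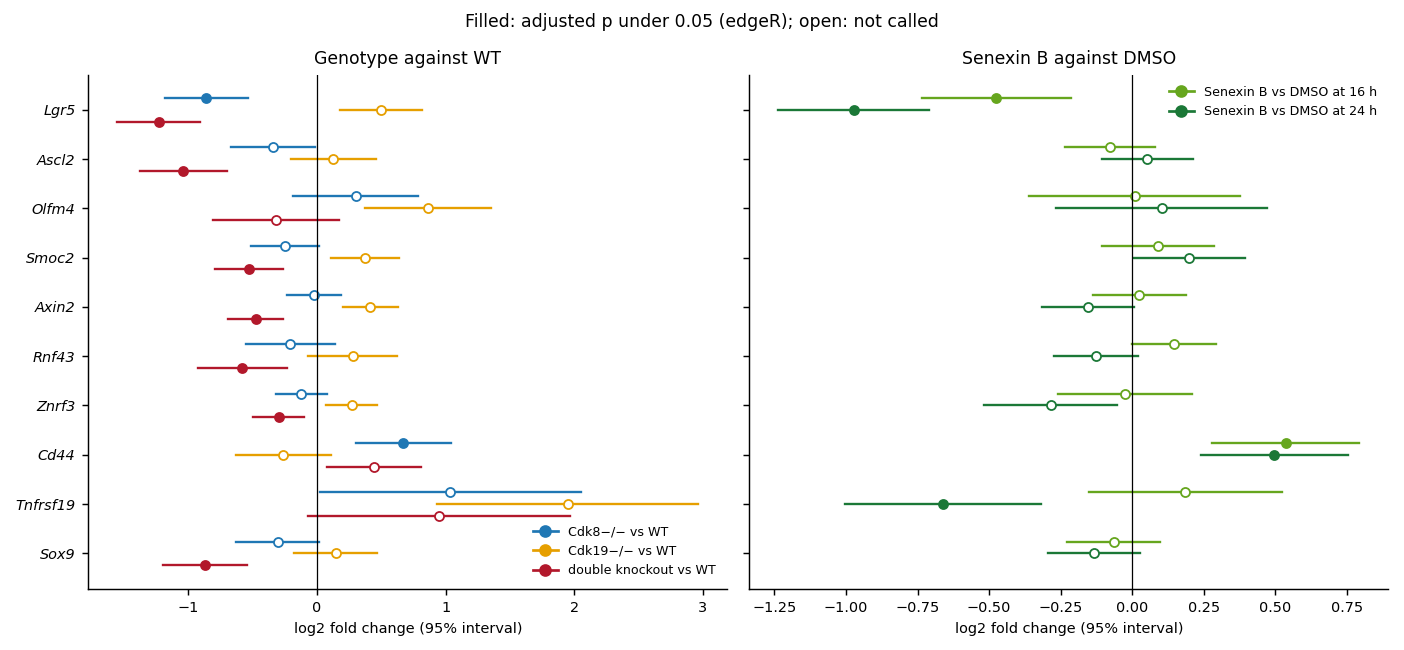
Log2 fold changes with 95% intervals (horizontal axes) of the 10 genes, in each genotype against WT on the left and in Senexin B against DMSO on the right. Filled points were called at an adjusted p under 0.05. Lgr5 lies left of 0 in the Cdk8-/- and double knockout organoids and at both times of Senexin B, and right of 0 in Cdk19-/-.

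The double knockout combines both losses and was compared with each single knockout. Reads on Esr1 were at 2.92 to 4.03 normalised counts in Cdk19-/- and at 298 to 393 in the double knockout. The Cre transgene thus differs between these groups, and with it the line in which Cdk19 was edited. The different edited lines also enter the test of additivity below. Against Cdk19-/-, 9 of the 10 genes were called, 8 lower and Cd44 higher, beside 25.3% of all genes called and 11.0% called lower. Lgr5 fell 3.32-fold (log2 fold change -1.73, edgeR adjusted p = 5.2e-05) and Olfm4, not called against WT, fell 2.27-fold (-1.18, adjusted p = 0.00309). Tnfrsf19 was the gene not called (-1.0, adjusted p = 0.119), and it was called without the 2 libraries (-1.75, adjusted p = 6.8e-04). Over 14 alternatives its log2 fold change ranged from -1.75 to -0.51, and it was called in 3 of them. Cd44 rose by 0.70 on the log2 scale (adjusted p = 0.0102), with overlapping groups. Its call was lost without Cdk19-/- replicate 2 (adjusted p = 0.0502) or replicate 3 (adjusted p = 0.053), and with the 2 groups alone (edgeR adjusted p = 0.0514).

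Against Cdk8-/-, 0 of the 10 genes were called by edgeR, beside 0.0256% of all genes, while DESeq2 called 3 of them and 407 genes in all. All 10 log2 fold changes were below 0, with a median of -0.37. At an unadjusted p under 0.05, 7 genes were lower, against 8.56% of all genes. Ascl2 (log2 fold change -0.70, edgeR adjusted p = 0.135), Sox9 (-0.56, adjusted p = 0.144), Axin2 (-0.45, adjusted p = 0.135), Olfm4 (-0.62) and Znrf3 (-0.17) were apart from Cdk8-/- in every library, while Lgr5 (-0.37, 95% interval -0.69 to -0.05) overlapped it. The share of all genes apart in this way is not given here, so the separation alone says little about these genes. Without Cdk8-/- replicate 3, Ascl2 (-0.84, adjusted p = 0.0135), Axin2 (-0.52, adjusted p = 0.0202) and Smoc2 (-0.41, adjusted p = 0.0294) were called, with 839 genes in all. Without the 2 libraries at the WT level of Cdk19, the log2 fold changes of the 10 genes lay between -0.71 (Sox9) and -0.21 (Znrf3), and edgeR adjusted p was 0.0588 (Rnf43) or higher.

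A direct test asked if the effect of the double knockout equals both single effects added together, and 0 of the 10 genes were called by edgeR, beside 0.0256% of all genes. The estimate was below 0 for 9 genes, all at an unadjusted p under 0.05, against 6.52% of all genes tested that were lower at that level. Axin2 came closest (log2 difference -0.87, 95% interval -1.17 to -0.57, edgeR adjusted p = 0.0583), followed by Olfm4 (-1.48, adjusted p = 0.0843) and Lgr5 (-0.87, adjusted p = 0.107). Cd44 was at 0.03 (95% interval -0.48 to 0.55). DESeq2 called 6 of the 10 genes and 490 genes in all. Without the 2 libraries at the WT level of Cdk19, edgeR called 7, namely Lgr5 (-1.08), Olfm4 (-1.60), Axin2 (-1.0), Rnf43 (-0.96), Znrf3 (-0.56), Tnfrsf19 (-2.77) and Sox9 (-0.89), and 728 genes in all. The comparisons above share their WT or knockout libraries, so they do not count as separate evidence.

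**Figure D3:**
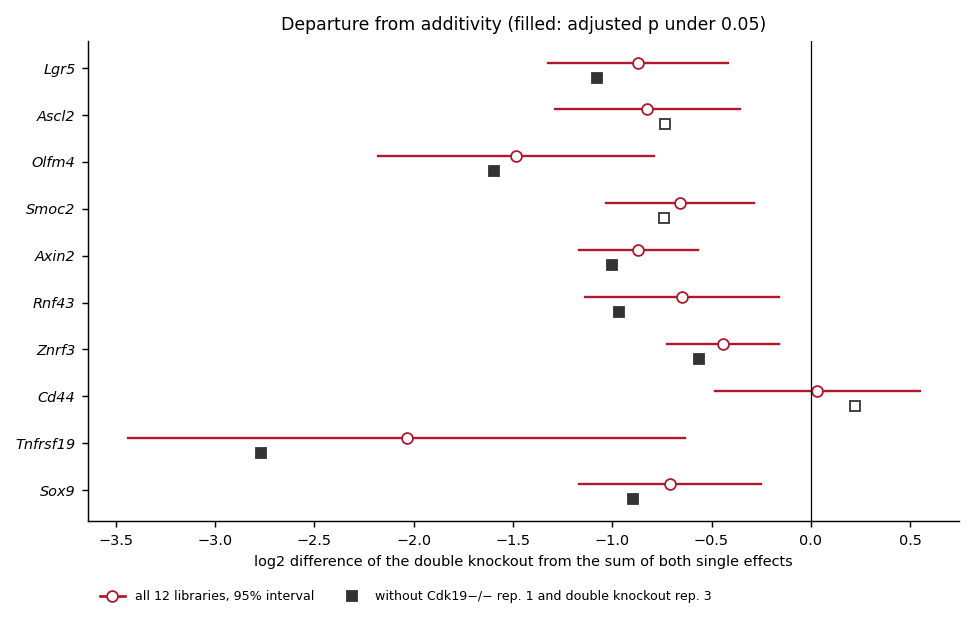
Log2 difference (horizontal axis) between the double knockout and the sum of both single knockout effects for each gene. Circles with 95% intervals use all 12 libraries, squares leave out Cdk19-/- replicate 1 and double knockout replicate 3, and filled symbols were called. 9 of the 10 circles lie below 0 and 0 are filled, while 7 squares are filled.

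In the inhibitor experiment Lgr5 fell at both times, 1.39-fold at 16 h and 1.96-fold at 24 h, and Cd44 rose 1.45-fold and 1.41-fold. Tnfrsf19 fell 1.58-fold at 24 h. The other stem cell genes and feedback genes were not called. In all, 2 of 10 genes were called at 16 h and 3 of 10 at 24 h, beside 7.75% and 27.5% of all genes tested, so that the number at 24 h is near the share over all genes. Their median log2 fold changes were 0.02 and -0.13, against -0.01 and 0.00 over all 15467 genes.

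Lgr5 had 7269, 10057 and 10309.7 normalised counts in DMSO at 16 h and 6493, 6414 and 6988 in Senexin B. DMSO replicate 1 lay close to the Senexin B libraries. The log2 fold change was -0.47 (SE 0.122, edgeR adjusted p = 0.0285), and the call was lost when any library other than DMSO replicate 1 was left out (adjusted p 0.0629 to 0.109). At 24 h Lgr5 had 11131, 10255 and 11479 normalised counts in DMSO and 6496, 4911 and 5331 in Senexin B. These groups were far apart, with a log2 fold change of -0.97 (SE 0.123, 95% interval -1.24 to -0.71, edgeR adjusted p = 1.1e-04). The fall at 24 h exceeded that at 16 h by 0.50 on the log2 scale (95% interval -0.87 to -0.13), which was not called (edgeR adjusted p = 0.287).

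Cd44 had 2678, 3680.1 and 3649.7 normalised counts in DMSO at 16 h and 4227, 5254 and 5038 in Senexin B, a log2 fold change of 0.54 (SE 0.120, edgeR adjusted p = 0.0132). Every Senexin B library was above every DMSO library. The call was lost without Senexin B replicate 2 (adjusted p = 0.06) or replicate 3 (adjusted p = 0.0582). At 24 h it had 2983, 3435 and 3468 in DMSO and 4161, 4938 and 4846 in Senexin B, again apart (0.50, SE 0.120, edgeR adjusted p = 0.00775). The response of Cd44 differed between the times by -0.04 (95% interval -0.40 to 0.32).

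Tnfrsf19 had 179.9, 267.5 and 245.0 normalised counts in DMSO at 16 h and 220.0, 287.3 and 280.1 in Senexin B, which overlapped. At 24 h it had 234.6, 286.6 and 308.7 in DMSO and 174.5, 157.2 and 192.9 in Senexin B, all lower (log2 fold change -0.66, SE 0.160, edgeR adjusted p = 0.00781). The response at 24 h was lower than at 16 h by 0.85 on the log2 scale, which was not called (edgeR adjusted p = 0.264). It was called with the replicate number as a block (-0.84, edgeR adjusted p = 0.0434) and without a filter (-0.84, adjusted p = 0.0235). For the change in response between the times, 0.0% of all genes were called by edgeR, with 3 of the 10 genes and 1995 genes in all at an unadjusted p under 0.05, and DESeq2 called 0 of the 10 and 66 in all.

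**Figure D4:**
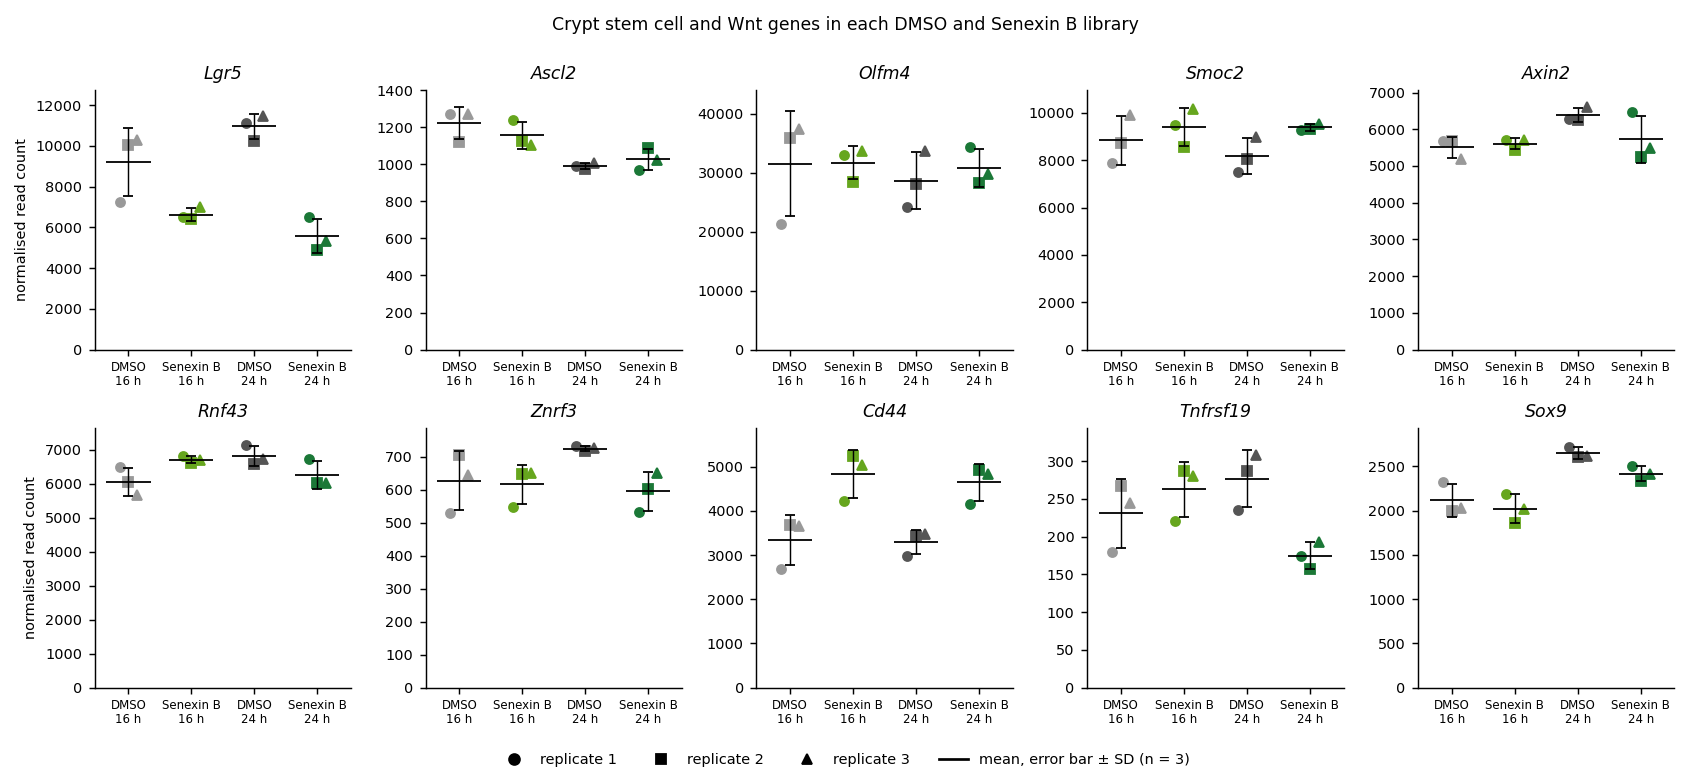
Normalised read counts (vertical axes, each from 0) of the 10 genes in the 12 inhibitor libraries. Symbols mark replicates and bars the mean ± SD of 3 libraries. Senexin B libraries lie below DMSO for Lgr5 and above DMSO for Cd44 at both times, while those of Ascl2 and Olfm4 overlap DMSO.

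Ascl2 had 988.7, 973.9 and 1010.03 normalised counts in DMSO at 24 h and 969.9, 1086.5 and 1025 in Senexin B. The groups overlapped, and the log2 fold change of 0.05 had a 95% interval of -0.11 to 0.21. Olfm4 had 24145, 28133 and 33686 in DMSO and 34318, 28186 and 29848 in Senexin B, and the interval of its log2 fold change of 0.10 was wider, from -0.26 to 0.47. Smoc2 had 7506, 8051 and 8977 in DMSO and 9294, 9326 and 9551 in Senexin B, all above DMSO by a small margin (log2 fold change 0.20, edgeR adjusted p = 0.119). At 16 h the groups of each of these 3 genes overlapped. Ascl2 had 1269, 1122 and 1272 in DMSO and 1242, 1124 and 1107 in Senexin B, Olfm4 21311, 35837 and 37385 beside 32965, 28469 and 33713, and Smoc2 7872, 8725 and 9930.2 beside 9511, 8562 and 10168.

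Among the feedback genes at 24 h, Znrf3 had 732.8, 716.5 and 725.1 normalised counts in DMSO and 531.7, 601.6 and 650.9 in Senexin B. All were lower, and the log2 fold change of -0.29 was just not called (edgeR adjusted p = 0.0655). With the 2 groups alone Znrf3 was called (-0.29, edgeR adjusted p = 0.027). Axin2 had 6273, 6266 and 6608 in DMSO and 6460.1, 5256 and 5481 in Senexin B, where replicate 1 was within the DMSO range (-0.15, 95% interval -0.32 to 0.01). Without that library the log2 fold change of Axin2 was -0.25 (edgeR adjusted p = 0.0187). Rnf43 had 7151, 6576 and 6729 in DMSO and 6730.1, 6009 and 6012 in Senexin B (-0.13), and Sox9 2723, 2609.8 and 2619 beside 2500.3, 2337 and 2413 (-0.13), neither of them called. At 16 h the log2 fold changes of Axin2, Rnf43, Znrf3 and Sox9 lay between -0.07 and 0.15. Deviations from the group means correlated between Senexin B and DMSO libraries of the same number at 0.137 to 0.377 at 24 h, while those of different numbers ranged from -0.26 to 0.147, so that the numbers were taken as pairs on small correlations. With the replicate number as a block, 36.9% of all genes were called at 24 h, and 5 of the 10 genes in place of 3, the added ones being Znrf3 (-0.29, adjusted p = 0.0117) and Smoc2 (0.20, adjusted p = 0.0278).

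Between DMSO at 16 h and at 24 h, 2 of the 10 genes were called. Ascl2 fell by 0.30 on the log2 scale (edgeR adjusted p = 0.0204), and Sox9 rose by 0.33 (adjusted p = 0.0165). Of all genes tested, 11.1% were called. The groups of both genes were apart. The call of Ascl2 was lost without DMSO 16 h replicate 3 or DMSO 24 h replicate 1 or 2 (adjusted p up to 0.0902), and that of Sox9 without DMSO 16 h replicate 3 or DMSO 24 h replicate 1 (adjusted p up to 0.0767). Lgr5 differed by 0.25 (95% interval -0.01 to 0.51), Axin2 by 0.21 and Rnf43 by 0.17 between the times, and none of the 3 was called (edgeR adjusted p = 0.195, 0.0845 and 0.119).

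The other genes of the crypt and of the pathway were counted in lists. Of 18 other crypt stem cell genes, 8 fell and 0 rose in the double knockout, where 7.9% of all genes tested fell and 9.41% rose, with a median log2 fold change of -0.40 beside -0.01 over all genes. They included Cdca7, a partner of a chromatin remodeller (-0.97), Rgmb, a BMP co-receptor (-0.80), Hopx, a homeodomain protein (-0.71), and Msi1, an RNA-binding protein (-0.58). The numbers were 9 and 0 without the 2 libraries at the WT level of Cdk19, a fit in which 8.69% of all genes fell and 10.3% rose. In Cdk8-/-, Cdca7 fell (-0.48) and Clca3b rose (0.45), and the other 16 were not called, beside 2.36% of all genes that fell and 2.79% that rose. In Senexin B the same list held genes that rose, 5 of 17 at 16 h and 6 of 17 at 24 h, with 0 called lower. Of all genes tested, 4.36% rose at 16 h and 14.8% at 24 h. The median log2 fold change of the list was 0.18 at 16 h and 0.07 at 24 h, beside -0.01 and 0.00 over all genes. These included Gkn3 (0.59 and 0.64) and the sodium-potassium-chloride transporter Slc12a2 (0.61 and 0.44). With the replicate block, 8 rose and 1 fell at 16 h, where 7.49% of all genes rose and 7.34% fell in that fit, and 6 rose and 2 fell at 24 h, beside 19.3% and 17.6%.

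Of 15 other Wnt target genes that passed the filter, 4 rose in Cdk8-/-, namely the matrix metalloprotease Mmp7 (log2 fold change 1.49), the Wnt inhibitor Apcdd1 (1.22), the TGF-β pseudoreceptor Bambi (1.01) and cyclin D1, Ccnd1 (0.53), where 2.79% of all genes rose. Mmp7 is also a gene of Paneth cells. In the double knockout 3 rose (Mmp7 1.20, Apcdd1 1.10 and Bambi 0.94) and 3 fell, among them Myc (-0.63), and the median was 0.16, so that the targets did not move one way. Of all genes, 9.41% rose and 7.9% fell there. Without the 2 libraries at the WT level of Cdk19, 1 rose and 3 fell, beside 10.3% and 8.69% of all genes in that fit. In Senexin B at 16 h 4 of 15 rose (Lbh 0.67, Ephb3 0.41, Myc 0.37 and Ccnd1 0.32), beside 4.36% of all genes. At 24 h 3 rose, among them Ccnd1 (0.72) and Lbh (0.50), and 4 fell, among them Lef1, a TCF/LEF factor (-0.63), and Prox1 (-0.50). At this time 14.8% of all genes rose and 12.7% fell, so that 3 of 15 rising is near the share over all genes.

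Wnt ligands and their secretion factors were mostly not called. Of 10 that passed the filter in the genotype experiment, Wnt7b and Wnt10a rose in Cdk8-/-, from means of 1.69 and 3.06 normalised counts in WT to 18.3 and 22.0, which are low counts. At their WT levels these genes would not have passed the filter. They are among the 10 only through groups where they were higher, so their number says nothing about the list. Both also rose in the double knockout (log2 fold changes 2.58 and 2.06), but 0 of the 10 were called there without the 2 libraries at the WT level of Cdk19, with 3 at an unadjusted p under 0.05 by edgeR and 2 called by DESeq2 with all libraries. Of 14 receptors, Fzd5, a Wnt receptor of the crypt, fell in Cdk8-/- (-0.62) and in the double knockout (-0.60), where Fzd7 (-0.38) and Lgr4, the paralog of Lgr5 (-0.37), fell too. Over all genes, 2.36% fell and 2.79% rose in Cdk8-/-, and 7.9% fell and 9.41% rose in the double knockout. Of 26 genes of signal transduction 0 were called in Cdk8-/- by edgeR, with 2 at an unadjusted p under 0.05 and 0 called by DESeq2, and in the double knockout Axin1 fell (-0.25), 1 of 26 being below the share over all genes. There, 3 receptors fell without the 2 libraries too, and 1 gene of transduction rose and 1 fell.

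Components of the pathway were also called in Senexin B at 24 h, where 27.5% of all genes were, 12.7% of all being lower. Of 8 ligands and secretion factors 3 fell, namely Wnt9a (-1.01, from 13.9 to 6.80 normalised counts), Wnt3, the ligand made by Paneth cells (-0.40), and Wls, which carries Wnt proteins to the surface (-0.28). Of 14 receptors 2 fell, Lrp6, a co-receptor (-0.38), and Lgr4 (-0.35), which is near the share over all genes. Of 25 genes of signal transduction 8 fell and 3 rose, the latter near the 14.8% of all genes that rose, and the largest falls were those of Tle2 (-0.80), a corepressor, Bcl9l (-0.69) and Bcl9 (-0.65), which bind β-catenin, and Tnks (-0.42), a tankyrase that marks axin for degradation. At 16 h 1 of 14 receptors (Fzd4, -0.40) and 1 of 25 genes of signal transduction (Bcl9l, -0.46) fell, near the 3.39% of all genes called lower. The block called 2 receptors higher and 1 lower, and 1 gene of transduction higher and 3 lower, beside 7.49% and 7.34% of all genes in that fit.

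**Figure D5:**
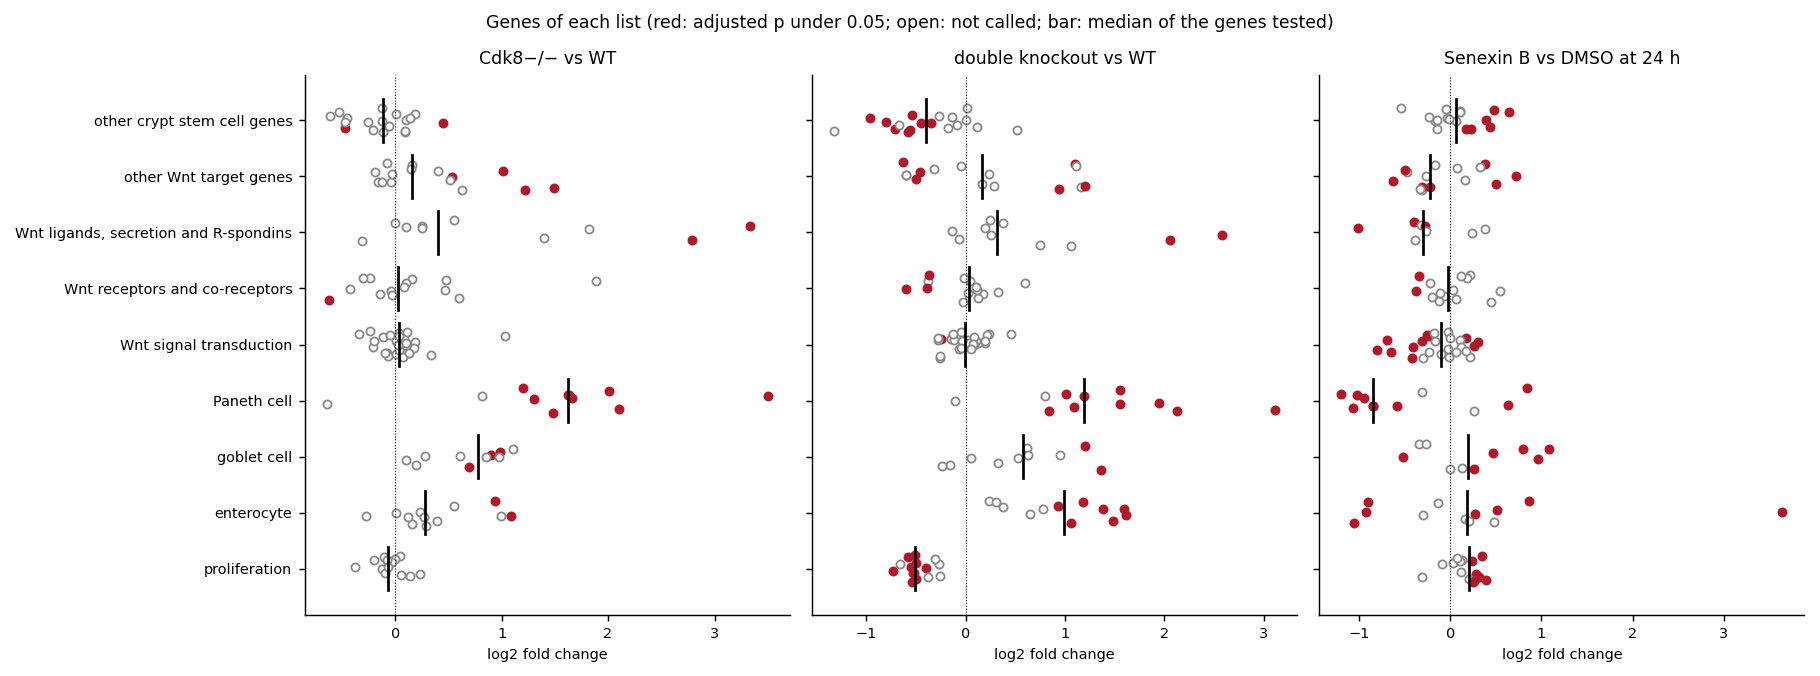
Log2 fold change (horizontal axes) of every gene tested in each list, for Cdk8-/- against WT, the double knockout against WT and Senexin B against DMSO at 24 h. Red points were called, open points were not, and the bar is the median of the list. For other crypt stem cell genes the median lies left of 0 in the double knockout (-0.40, with 8 of 18 called lower and points on both sides of 0) and near 0 in Senexin B (0.07).

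Genes of other epithelial cells also differed in these libraries. Paneth cell genes rose in Cdk8-/- and in the double knockout, 9 of 11 in each, beside 2.79% and 9.41% of all genes. Without the 2 libraries at the WT level of Cdk19, 8 of 11 rose in the double knockout, beside 10.3% of all genes in that fit. Their summed counts were 25381 to 31954 in WT, 67627 to 88811 in Cdk8-/- and 44274 to 87530 in the double knockout. In Cdk19-/-, where 0 of 11 were called by edgeR (0 at an unadjusted p under 0.05, 0 called by DESeq2), the sum was 24776 to 31693. In Senexin B at 24 h, 7 of 11 fell and 2 rose, beside 12.7% and 14.8% of all genes, and the sum was 52929 to 63858 beside 100809 to 108967 in DMSO. Lgr5 thus was lower in the Cdk8-/- and double knockout libraries, where Paneth cell genes were higher, and lower in the Senexin B libraries, where they were lower in sum. The defensin genes of this list are near copies of each other, so their counts are uncertain.

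Enterocyte genes rose in the double knockout, 7 of 12, with a median log2 fold change of 0.99, and 2 of 12 rose in Cdk8-/-. Of 10 goblet cell genes, 2 rose in the double knockout and 3 in Cdk8-/-. Over all genes, 9.41% rose in the double knockout and 2.79% in Cdk8-/-, so that 2 goblet cell genes of 10 is not far from the share over all genes. Of 15 proliferation genes 10 fell in the double knockout (median -0.51), with Mcm6 (-0.73) showing the largest fall, beside 7.9% of all genes that fell, whereas in Senexin B at 24 h 7 of 15 rose, beside 14.8% of all genes. The double knockout had 9 enterocyte and 4 goblet cell genes that rose and 7 proliferation genes that fell without the 2 libraries at the WT level of Cdk19, beside 10.3% and 8.69% of all genes in that fit. Next to these, mesenchymal markers summed to 208 to 474 normalised counts in the genotype libraries and blood and endothelial markers to 15.1 to 84.7, against at least 120326 for epithelial markers, with the mesenchymal genes Col3a1 and Lum at 0. What part the shifts in Paneth, enterocyte and proliferation genes have in the values of the 10 genes was not tested.

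The genes whose levels followed Lgr5 and Olfm4 most closely differed between the experiments. Over the 12 genotype libraries, log2 levels of Lgr5 correlated most with those of Deaf1 (Pearson r = 0.98), Epb41l4aos (0.98) and Fgfr3 (0.97), among 12132 genes whose mean was 50 normalised counts or more. Over the 12 inhibitor libraries these were Hydin (0.97), Nr1d2 (0.97) and Rictor (0.96), among 12006 genes. For Olfm4 the closest genes were Rcor2 (0.94), Mrpl21 (0.93) and Gm10143 (0.92) in the genotype libraries, and Scn2b (0.88), Zbed4 (0.88) and Lrig1 (0.87) in the inhibitor libraries. Of these, Lrig1 is itself a gene of intestinal stem cells. The libraries of a group share their condition, and the highest values among so many genes are high by selection, so these r describe the libraries and carry no test.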

How the data were processed

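RNA-seq libraries of small intestinal organoids were single-end with 50-base reads. The authors aligned them to GRCm38.p6 with STAR (2.6.0c in the submitters' processing notes) and deposited raw read counts per gene of Ensembl release 93, not normalised, giving unstranded counts and counts by strand. Counts of the second strand (column 4) were used. Of the reads, 63.1 to 65.2% were not counted on a gene there in the genotype libraries and 21.5 to 25.1% in the inhibitor libraries. In the genotype libraries, prepared with oligo(dT) beads, 49.6 to 49.7% of stranded counts lay in it, so that strand is not resolved. In the inhibitor libraries, labelled as depleted of rRNA, it was 87.9 to 90.5%. Gene positions and merged exon lengths came from GENCODE vM21.

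Counts were normalised with TMM, filtered with filterByExpr and tested (two-sided, quasi-likelihood) in edgeR 4.0.16, run under R 4.3.3, in a model of the 12 libraries of each experiment, over 15602 and 15467 genes. There were 10 comparisons. Scripts were tested on simulated data. Python 3.11.15 with matplotlib 3.10.9 drew the figures. Alternatives were DESeq2 size factors, the Wald test of DESeq2 1.42.0, no filter, at least 10 counts in every library, the unstranded column, the 2 groups alone, the replicate number as a block and leaving out each library in turn. Leaving out both libraries at the WT level of Cdk19, and the short motif core, were added after seeing the data. The 10 genes and the lists were chosen with earlier results of these data known. Lists were described by counts and medians, and of each list at most the 4 called genes with the largest changes were named (2 for Paneth, goblet, enterocyte and proliferation genes). Deviations from the group means of libraries with the same number correlated at 0.303, 0.101 and 0.11 between Senexin B and DMSO at 16 h and at 0.377, 0.137 and 0.187 at 24 h, while libraries of different numbers reached 0.154 and 0.147, so that not every library correlated best with its own number. As every matched correlation was above 0.1, the numbers were taken as pairs from these small correlations alone, replicate 2 at 16 h by a small margin, and the fit without the block stayed the main one. Between DMSO at 16 h and at 24 h they were 0.366, -0.0503 and 0.284, so the numbers were not taken to pair those. No pair of replicates agreed within counting noise (chi-square over degrees of freedom 2.31 to 35.9).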

Additional observations from a re-analysis of the deposited data

How the results depend on the processing

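Of 1450 values of a gene under an alternative, 1334 kept their direction and their side of the threshold, 40 lost a call, 76 gained one and 0 called values changed sign. The sign of a value called in neither fit changed 24 times. In the double knockout against WT and against Cdk19-/- the number of the 10 genes called stayed within 1.5 times under every alternative. In Cdk8-/- against WT, 1 gene in place of 2 was called with the replicate block and 1 without any single library, while 3 were called without a filter and with the 2 groups alone. The share over all genes was 4.54% with the block and 4.26% without a filter. In Cdk19-/- against WT, in place of 0, 4 were called with DESeq2 and 4 without a filter, 5 without both libraries at the WT level of Cdk19, and 0 to 3 without a single library. Here DESeq2 called 1.04% of all genes, the fit without a filter 1.61% and the fit without both libraries 4.21%. In the double knockout against Cdk8-/-, in place of 0, 3 were called with DESeq2, 3 without a filter and 0 to 3 without a single library. Beside these, DESeq2 called 1.37% of all genes and the fit without a filter 1.2%. For the departure from additivity, in place of 0, 6 were called with DESeq2, 7 without a filter, 7 without both libraries and 0 to 5 without a single library. The shares over all genes in the first 3 of these fits were 1.64%, 1.9% and 4.6%. DESeq2 and the fit without a filter covered 29805 genes in the genotype experiment. For Senexin B at 16 h, in place of 2, 1 was called with the 2 groups alone, where Lgr5 lost its call (adjusted p = 0.0546), and 0 to 2 without a single library. At 24 h, 5 in place of 3 were called with the replicate block, beside 36.9% of all genes, and 4 with the 2 groups alone, which added Znrf3. For DMSO at 24 h against 16 h, in place of 2, 4 were called with the block, which added Axin2 and Rnf43, 0 with the 2 groups alone and 0 to 3 without a single library, Rnf43 being added without DMSO 16 h replicate 1. With the block, 21.2% of all genes were called. For the change in response between the times, in place of 0, 1 was called without a filter and 1 with the block (Tnfrsf19, adjusted p = 0.0434), beside 0.426% and 0.388% of all genes. The cause of these differences was not tested. Numbers over all genes moved as well, from 196 (without WT replicate 1) to 1294 (DESeq2) in Cdk8-/-, from 1348 to 3186 in the double knockout against WT, from 657 to 2293 for Senexin B at 16 h and from 2656 to 5712 at 24 h. The numbers were not taken to pair the DMSO libraries of the 2 times, where replicate 2 did not correlate (-0.0503), and in the genotype experiment they share no more than a name, since no comparison had every pair of libraries correlated above 0.1. With 3 libraries a group, and 2 where one is left out, small differences such as that of Znrf3 in the double knockout are near what these data can call.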
